A study of Mus musculus with 10 samples.

Results

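The NF-κB transcription factors and the proteins that hold them back were followed through 10 genes. These are the subunit genes Rela, Relb, Rel, Nfkb1 and Nfkb2, the classical inhibitor genes Nfkbia, Nfkbib and Nfkbie, the nuclear IκB gene Nfkbiz, and Tnfaip3, which encodes the ubiquitin-editing enzyme A20. The members were named as a list of symbols, with no cut on their measured values, though earlier results of these data were known. All 10 were found among the 51789 genes of the table. RNA was taken from isolated cardiomyocytes 4 days after myocardial infarction (MI). There were 5 libraries of cardiomyocyte-specific GRK5 transgenic mice (TgGRK5-MI) and 5 of non-transgenic littermate controls (NLC-MI). The study names as many mice per group as there are libraries, and each label says mouse in the singular. Each library was therefore read as RNA of 1 mouse. Both groups had the infarction, so the comparison is of the transgene and sham-operated hearts are not analysed here. The study describes young adult mice of both sexes for its serial measurements of heart function. The strain, the promoter of the transgene and the age and sex behind each library are not given in the sources used here. All libraries hold RNA of bulk isolates, in which fewer cells of a type and less RNA per cell cannot be told apart.

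NF-κB proteins are dimers of REL family subunits that wait in the cytosol in unstimulated cells, bound by IκB inhibitors. Signals from cytokine and Toll-like receptors activate the IκB kinase, the inhibitor is degraded, and the dimer enters the nucleus. Among the genes it then switches on are those of its own inhibitors and of several subunits, so that the pathway carries its own feedback. In the infarcted heart it is known as a route by which injured muscle and recruited leukocytes switch on inflammatory genes. Much of this control acts on protein location and stability, which RNA counts do not measure.

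The sequences through which NF-κB binds DNA, κB sites, are shown for the members because the same factors are known to drive several of these genes. Promoter windows from 250 bases before to 50 bases after the annotated start were available from RefSeq (GRCm38.p6) for 7 of the 10 members. Both strands were searched for the κB consensus. A match was found in 5 of these 7 genes, and in 9.55% of the 27025 genes with a window. Each line below runs 5′ to 3′ along the gene's own strand, and capitals mark the bases that match on either strand.
Nfkbia, 29 bases before the start, chr12:55492652-55492691, minus strand: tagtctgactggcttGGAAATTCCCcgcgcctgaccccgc
Nfkbie, 106 bases before the start, chr17:45555579-45555618, plus strand: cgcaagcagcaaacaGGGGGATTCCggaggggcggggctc
Nfkb2, 39 bases before the start, chr19:46304683-46304722, plus strand: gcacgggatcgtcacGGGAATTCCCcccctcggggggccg
Nfkb2, 11 bases before the start, chr19:46304711-46304750, plus strand: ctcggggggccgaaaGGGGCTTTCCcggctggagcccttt
Rel, 92 bases before the start, chr11:23771037-23771076, minus strand: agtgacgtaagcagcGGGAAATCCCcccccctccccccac
Tnfaip3, 12 bases before the start, chr10:19015398-19015437, minus strand: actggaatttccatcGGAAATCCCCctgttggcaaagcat

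The first Nfkb2 match and the Rel match read as the consensus on both strands, and each overlaps a further match shifted by 1 base. Nfkb2 has further windows at alternative starts that also hold matches, and Tnfaip3 has a further match at 125 bases before its start. The windows of Rela and Nfkbib held none. A match describes the letters of these windows and is not a measured binding site.

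The libraries held from 7968779 to 23381527 counts in NLC-MI and from 9114469 to 22231424 counts in TgGRK5-MI. Each member had at least 29 counts in every library, well above the 3 counts taken as the floor of the depth. Grk5, the gene of the transgene's protein, lay between 46.5 and 73.1 CPM (counts scaled to a common library total) in NLC-MI, and in TgGRK5-MI between 552.4 and 1700 CPM, so the labels and the RNA matched. Cardiomyocyte markers were abundant in all libraries, with the summed level of 8 genes between 47440 and 121600 CPM in NLC-MI and between 50600 and 97810 CPM in TgGRK5-MI. Fibroblast markers were present too (8 genes, 4031 to 24100 and 4198 to 24770 CPM), as were macrophage and monocyte markers (10 genes, 690 to 2110 and 1153 to 2369 CPM). The 4 libraries with the fewest counts were NLC-MI replicates 3 and 5 and TgGRK5-MI replicates 3 and 4, and they are set apart in what follows because several members followed the depth.

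For none of the 10 members did the difference between TgGRK5-MI and NLC-MI pass the test. Counts were scaled with edgeR's TMM factors and compared by its quasi-likelihood F test over all 15232 genes that passed a filter on low counts, as did all 10 members. At an adjusted p under 0.10, 0 members were called, where 0.0788% of all genes tested were. At an unadjusted p under 0.05 the number was 0 as well, against 3.85% of all genes, and DESeq2 and limma-voom also gave 0 at either threshold. The adjusted p of every member was 1 in edgeR. The log2 fold change was above 0 for 3 members and below 0 for 7 members, with a median of -0.12 where all genes tested had a median of 0.0013. No member had groups whose CPM values did not overlap, against 1% of all genes tested. The p-values set each difference between the groups against the spread between these libraries. The 95% intervals below give the sizes of change that the data leave within reach.

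**Figure D1:**
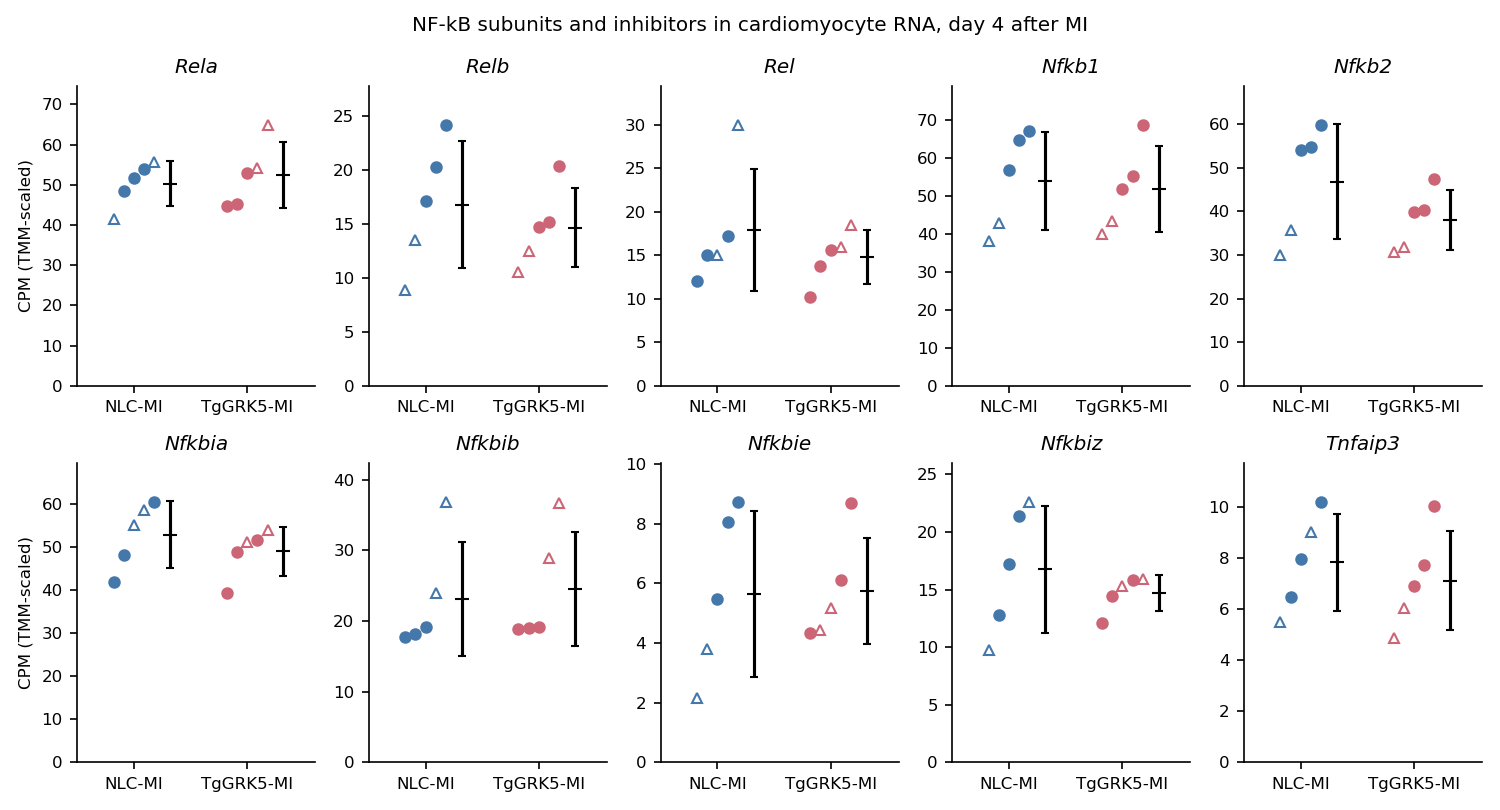
Level of each member (CPM, TMM-scaled, axis from 0) in the 5 NLC-MI and 5 TgGRK5-MI libraries, with the mean ± SD beside the points. Open triangles are the 4 libraries with the fewest counts, and in all 10 panels the groups overlap.

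**Figure D2:**
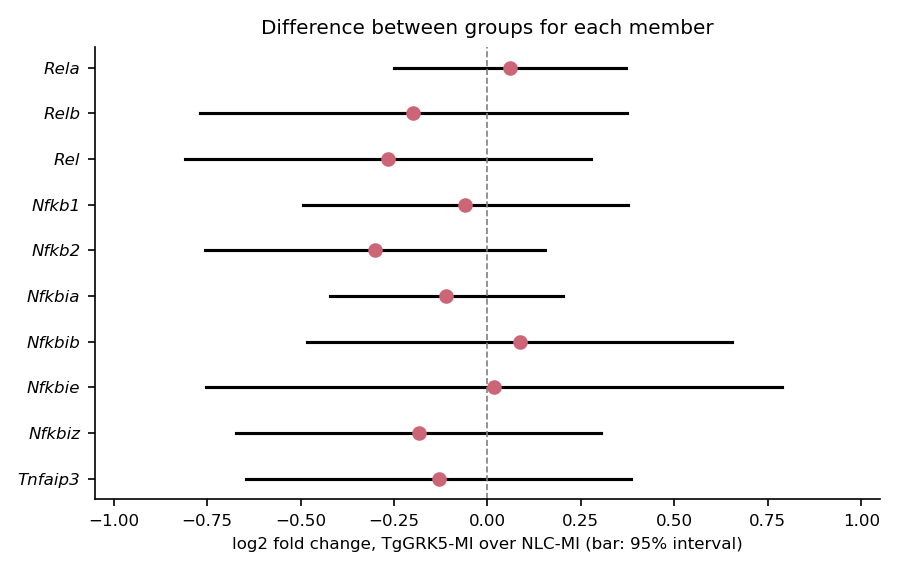
Log2 fold change of TgGRK5-MI over NLC-MI for each member from edgeR, with its 95% interval. Every interval crosses 0, with the shortest for Rela (-0.25 to 0.37) and the widest for Nfkbie (-0.75 to 0.79).

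Among the subunits, Rela (ENSMUSG00000024927, chromosome 19 from 5637483 to 5648130) encodes p65, the subunit of the classical dimer that carries a strong activation domain. It was at 51.7, 48.4, 55.7, 54.0 and 41.6 CPM in NLC-MI replicates 1 to 5 and at 44.8, 53.1, 54.1, 64.8 and 45.2 CPM in TgGRK5-MI replicates 1 to 5. The group means were 50.3 ± 5.60 and 52.4 ± 8.19 CPM (SD, n = 5 in each group), and the highest and the lowest value, TgGRK5-MI replicate 4 and NLC-MI replicate 5, came from libraries with few counts. For its log2 fold change, 0.06 with a standard error of 0.14, the 95% interval ran from -0.25 to 0.37, a fold of 0.840 to 1.29. The two-sided exact permutation test of the mean log2 CPM gave p = 0.675.

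Nfkb1 (ENSMUSG00000028163, chromosome 3 from 135584655 to 135691547) encodes p105, the precursor of p50, the usual partner of p65. It was at 67.0, 64.8, 38.2, 56.8 and 42.8 CPM in NLC-MI and at 51.8, 68.5, 40.0, 43.3 and 55.2 CPM in TgGRK5-MI. The values fell into the same range in both groups, with NLC-MI replicates 3 and 5 and TgGRK5-MI replicates 3 and 4 lowest. Its log2 fold change was -0.06 (standard error 0.20, 95% interval -0.49 to 0.38; exact permutation test, p = 0.818).

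Nfkb2 (ENSMUSG00000025225, chromosome 19 from 46304320 to 46312385) encodes p100, which is both the precursor of p52 and an inhibitor of RelB in the alternative pathway. It was at 53.9, 54.6, 30.0, 59.7 and 35.7 CPM in NLC-MI and at 40.2, 47.4, 30.7, 31.8 and 39.8 CPM in TgGRK5-MI. Its log2 fold change of -0.30 (standard error 0.21, 95% interval -0.76 to 0.16) was the largest among the members, with the smallest unadjusted p (0.175 from edgeR; exact permutation test, p = 0.270). Among the 6 libraries with the most counts, a split chosen after seeing the data, the difference of mean log2 CPM was -0.40. The exact permutation test gave p = 0.1, the smallest that 3 against 3 allow, and the share of all genes that reach it was not counted. Among the 4 libraries with the fewest counts the difference was -0.07. With depth class (these 4 libraries against the other 6) as a term in edgeR, chosen after seeing the data, Nfkb2 had a log2 fold change of -0.27. Its unadjusted p was 0.0427, where 6.79% of all genes tested were under 0.05, and its adjusted p was 0.718 (0.466 to 1 over 22 alternatives). The classes were cut between libraries of 17539882 and 18337488 counts, and all 4 Nfkb2 values below the cut were lower than the other 6. Since the cut follows Nfkb2 itself, neither this unadjusted p nor the exact p within the 6 libraries can serve as support for a difference. With the log2 total count as a covariate the unadjusted p was 0.119 (log2 fold change -0.23), and without the 3 libraries with the fewest counts it was 0.193 (-0.27). Without NLC-MI replicate 3, the library with the fewest counts, edgeR gave -0.42 with an unadjusted p of 0.0448, where 6.87% of all genes tested were under 0.05. With the macrophage marker level as a covariate, also chosen after seeing the data, Nfkb2 and Relb had an unadjusted p under 0.05, as had 9.89% of all genes tested. Nfkb2 shares 299 exon bases with Psd on the opposite strand, and Psd had at most 30 counts in any library. It shares a further 531 exon bases with AC114539.1, a non-coding gene on the opposite strand whose level is not analysed here.

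Relb (ENSMUSG00000002983, chromosome 7 from 19606217 to 19629438) encodes the partner of p52 in the alternative pathway. It was at 24.2, 20.3, 8.90, 17.2 and 13.6 CPM in NLC-MI and at 15.2, 20.4, 12.5, 10.6 and 14.8 CPM in TgGRK5-MI. The lowest value in either group came from the library with the fewest counts in that group. The log2 fold change was -0.20 (standard error 0.26, 95% interval -0.77 to 0.37; exact permutation test, p = 0.619).

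Rel (ENSMUSG00000020275, chromosome 11 from 23736847 to 23770970) encodes c-Rel, the subunit best known from lymphoid and myeloid cells. It was at 12.1, 15.02, 30.0, 17.3 and 15.1 CPM in NLC-MI and at 15.6, 13.8, 16.0, 18.5 and 10.3 CPM in TgGRK5-MI. NLC-MI replicate 3 stood apart from the other libraries of its group. With all libraries the log2 fold change was -0.27 (standard error 0.25, 95% interval -0.81 to 0.28; exact permutation test, p = 0.468), and without NLC-MI replicate 3 it was -0.01.

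Of the inhibitors, Nfkbia (ENSMUSG00000021025, chromosome 12 from 55489410 to 55492647) encodes IκBα, the rapidly resynthesised brake on the classical dimer. It was at 60.5, 48.1, 58.6, 41.8 and 55.1 CPM in NLC-MI and at 39.4, 48.8, 51.2, 53.9 and 51.5 CPM in TgGRK5-MI. Its means of 52.8 ± 7.77 and 49.0 ± 5.63 CPM (SD, n = 5 each) differed by less than either SD. The log2 fold change was -0.11 (standard error 0.14, 95% interval -0.42 to 0.20; exact permutation test, p = 0.421), so the interval of the fold ran from 0.746 to 1.151.

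Nfkbib (ENSMUSG00000030595, chromosome 7 from 28758251 to 28767512) encodes IκBβ, an inhibitor that is not itself a rapid target. It was at 18.2, 17.7, 36.9, 19.1 and 23.9 CPM in NLC-MI and at 19.1, 18.9, 36.8, 29.0 and 19.0 CPM in TgGRK5-MI. The 6 libraries with the most counts lay between 17.7 and 19.1 CPM, and the other 4 lay between 23.9 and 36.9 CPM, in either group. The log2 fold change was 0.09 (standard error 0.26, 95% interval -0.48 to 0.65; exact permutation test, p = 0.746). Nfkbib shares 314 exon bases with Ccer2 and 42 exon bases with Sirt2 on the opposite strand. Ccer2 had 0 counts in every library, while Sirt2 lay between 89.0 and 164.4 CPM.

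Nfkbie (ENSMUSG00000023947, chromosome 17 from 45555703 to 45563169) encodes IκBε, a further inhibitor known to be induced by NF-κB. It was at 8.06, 8.74, 3.79, 5.49 and 2.16 CPM in NLC-MI and at 6.13, 8.68, 4.43, 5.17 and 4.35 CPM in TgGRK5-MI. The spread was wide within NLC-MI, and its log2 fold change was 0.02 (standard error 0.35, 95% interval -0.75 to 0.79; exact permutation test, p = 0.730). Nfkbie was therefore the member whose difference these libraries could limit least, to a fold of 0.593 to 1.73.

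Nfkbiz (ENSMUSG00000035356, chromosome 16 from 55811375 to 55838899) encodes IκBζ, a nuclear IκB protein that acts on a subset of inflammatory genes. It was at 21.4, 17.3, 22.6, 12.8 and 9.75 CPM in NLC-MI and at 14.4, 15.8, 15.3, 15.9 and 12.1 CPM in TgGRK5-MI. The TgGRK5-MI values lay inside the NLC-MI range, and the log2 fold change was -0.18 (standard error 0.22, 95% interval -0.67 to 0.30; exact permutation test, p = 0.635). The SD of log2 CPM was 0.51 in NLC-MI, against 0.16 in TgGRK5-MI, a difference in spread that was not tested.

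Tnfaip3 (ENSMUSG00000019850, chromosome 10 from 19000910 to 19015657) encodes A20, which removes ubiquitin chains from adaptors upstream of the IκB kinase. It was at 10.2, 7.97, 9.03, 6.47 and 5.50 CPM in NLC-MI and at 7.74, 10.04, 4.87, 6.03 and 6.93 CPM in TgGRK5-MI. The groups covered nearly the same range, with a log2 fold change of -0.13 (standard error 0.24, 95% interval -0.65 to 0.39; exact permutation test, p = 0.556).

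To compare the members with each other, CPM was divided by the length of each gene's merged exons in GENCODE M21. On this scale of CPM per kilobase, Nfkbia was highest, at 32.8 ± 4.83 in NLC-MI, against 30.4 ± 3.50 in TgGRK5-MI (SD, n = 5 each), above Rela in 10 of 10 libraries. Rela followed at 16.4 ± 1.82 and 17.1 ± 2.67 CPM per kilobase, above Nfkbib in 10 of 10 libraries. Nfkbib (10.7 ± 3.72 and 11.3 ± 3.72) and Nfkb2 (10.2 ± 2.86 and 8.287 ± 1.501) were next and changed places between libraries, with Nfkbib the higher in 6 of 10. Nfkb2 lay above Nfkb1 in all 10 libraries. Nfkb1, at 4.47 ± 1.07 and 4.29 ± 0.931 CPM per kilobase, and Relb, at 4.33 ± 1.52 and 3.78 ± 0.950, lay within each other's range, with Nfkb1 the higher in 9 of 10 libraries. Nfkbiz, Rel and Nfkbie came below them, again with ranges that overlapped between neighbours. Tnfaip3 was lowest, at 1.09 ± 0.263 and 0.985 ± 0.270 CPM per kilobase. The place of Nfkb1 depends on its merged exon length of 12061 bases, the longest among the members.

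As a share of the 5 subunits on the per-kilobase scale, Rela made up 43.7 ± 5.65% in NLC-MI, against 48.2 ± 6.67% in TgGRK5-MI (SD, n = 5 each). The share of Nfkb2 was 26.7 ± 4.66% and 23.4 ± 3.56%. Nfkb1 (11.75 ± 1.67% and 12.1 ± 2.06%), Relb (11.3 ± 3.04% and 10.6 ± 2.15%) and Rel (6.55 ± 3.07% and 5.63 ± 1.19%) made up the rest. The groups overlapped for each subunit. These shares, and the ratio of inhibitors to subunits below, rest on the merged exon lengths. Rela (3072 bases) and Nfkb1 (12061 bases) had similar CPM before the division, at 50.3 and 53.9 in NLC-MI and 52.4 and 51.8 in TgGRK5-MI. Rela had its highest shares, 53.1%, 53.4% and 57.3%, in NLC-MI replicate 3 and TgGRK5-MI replicates 3 and 4, the 3 libraries with the fewest counts, and stayed between 39.1% and 44.6% in the other 7. Among the 3 classical inhibitors, Nfkbia held 72.5 ± 4.01% in NLC-MI, against 70.0 ± 4.64% in TgGRK5-MI. The summed level of these inhibitors was 1.23 ± 0.316 times that of the 5 subunits in NLC-MI and 1.24 ± 0.202 times in TgGRK5-MI (SD, n = 5 each), and the groups overlapped, from 0.870 to 1.601 and from 1.04 to 1.52.

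**Figure D3:**
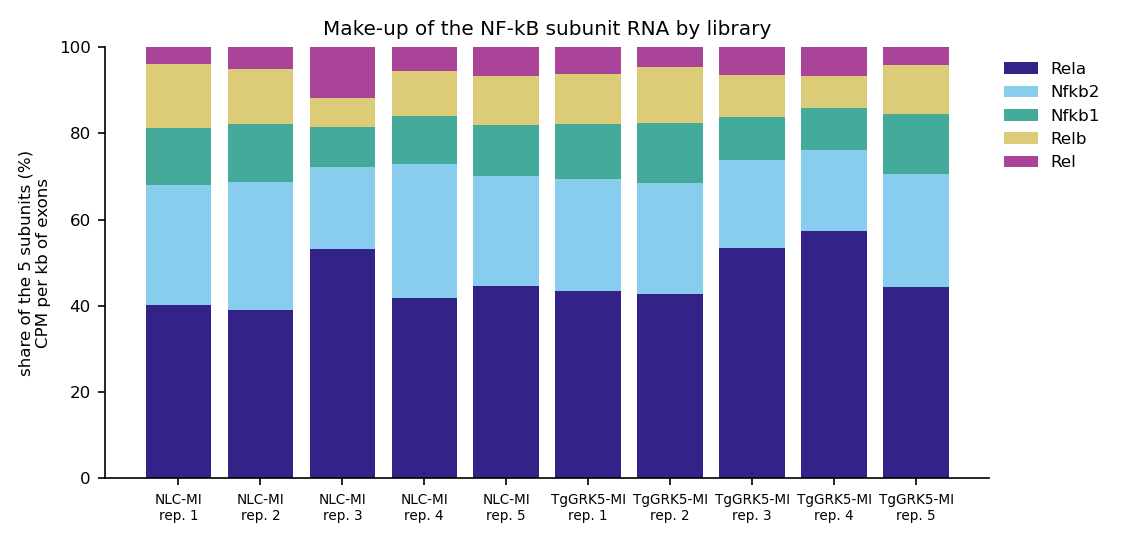
Share of each subunit gene in the summed level of the 5 subunits (percent, on CPM per kilobase of exons) for each library. On this scale, which rests on merged exon lengths, Rela is the largest part of every bar, from 39.1% in NLC-MI replicate 2 to 57.3% in TgGRK5-MI replicate 4.

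Differences between libraries of the same group were larger than those between the groups. For Relb, Nfkb1 and Nfkb2 the 4 libraries with the fewest counts all lay below the other 6, and for Nfkbib all 4 lay above them. Across all genes tested, 5.69% had such values below and 5.9% above. The cut was set after the members' values were seen and these 4 genes follow each other (Pearson r of 0.85 to 0.94 in size over the 10 libraries), so the split is a description, with no test. Relb lay between 8.90 and 13.6 CPM in these 4 libraries and between 14.8 and 24.2 CPM in the other 6. Nfkb1 lay between 38.2 and 43.3 CPM against 51.8 and 68.5 CPM, and Nfkb2 between 30.0 and 35.7 CPM against 39.8 and 59.7 CPM. Each depth class held NLC-MI and TgGRK5-MI libraries in equal number. Within the 6 libraries with the most counts, the difference of mean log2 CPM between TgGRK5-MI and NLC-MI was -0.29 for Relb, -0.11 for Nfkb1 and 0.05 for Nfkbib, and within the other 4 it was 0.07, 0.04 and 0.13. The part that depth itself, RNA quality or the cells of each isolate played in this split was not tested.

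**Figure D4:**
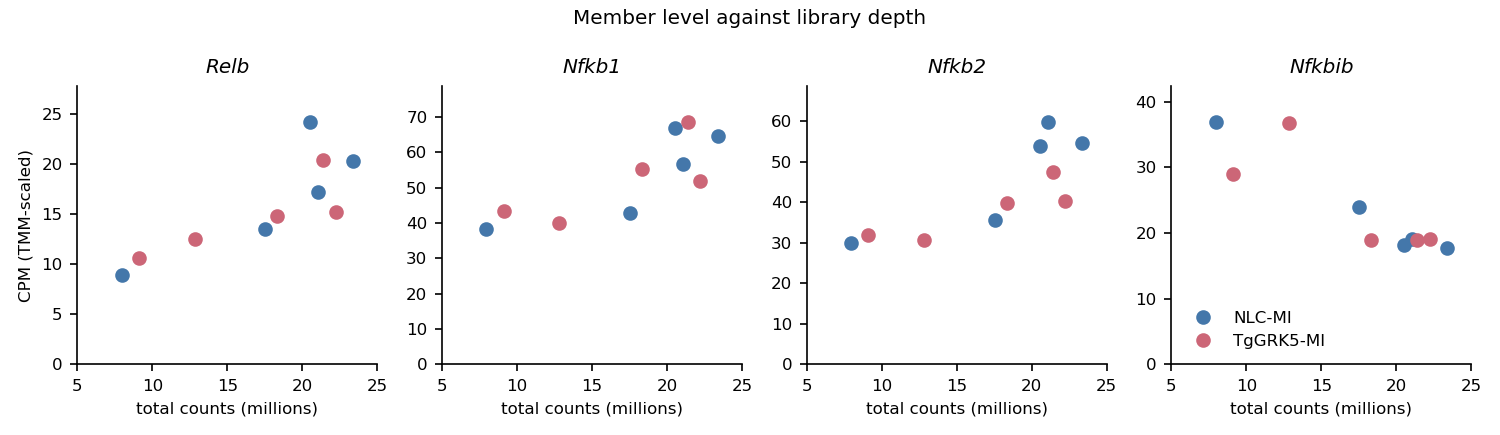
Level of Relb, Nfkb1, Nfkb2 and Nfkbib (CPM, axis from 0) against the total counts of the library, coloured by group. The 4 libraries with the fewest counts are lowest for the first 3 genes and highest for Nfkbib, where the other 6 lie between 17.7 and 19.1 CPM.

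Macrophages and monocytes also express NF-κB genes, and since their markers were present in the isolates, each member was set against the mean log2 CPM of 10 such markers over the 10 libraries. The most abundant of them, Lyz2, was at 594.2 ± 338.5 CPM in NLC-MI, against 789.7 ± 290.6 CPM in TgGRK5-MI, and C1qb at 170.0 ± 85.2 and 220.7 ± 75.4 CPM (SD, n = 5 each). None of the 10 markers had an unadjusted p under 0.05 between the groups, and 9 of them had a log2 fold change above 0, with a median of 0.20. Nfkbie rose with the marker level (Pearson r = 0.86, permutation p = 0.0012, adjusted p = 0.0291 over all 15232 genes; Spearman rho = 0.78, permutation p = 0.0108), as did Nfkb1 (r = 0.83, permutation p = 0.00367, adjusted p = 0.0462; rho = 0.82, permutation p = 0.00586). Of all genes tested, 5.74% had a positive and 2.95% a negative relation at an adjusted p under 0.05. Without NLC-MI replicate 5 and TgGRK5-MI replicate 2, the libraries farthest from the median marker level, r was 0.74 for Nfkbie and 0.78 for Nfkb1. With the fibroblast marker level, a measure chosen after seeing the data, Nfkbie had r = 0.91 (permutation p = 8e-05, adjusted p = 0.00472; rho = 0.88, permutation p = 0.00152), and 0.89 without the 2 libraries farthest from its median, where 8.62% of all genes tested had a positive and 2.92% a negative relation.

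For the other 8 members the adjusted p of the relation was above 0.05. Relb had r = 0.74 (permutation p = 0.0152, adjusted p = 0.0937; rho = 0.70, permutation p = 0.0312) and Rel had r = -0.64 (permutation p = 0.0437, adjusted p = 0.168; rho = -0.66, permutation p = 0.0439), with r = 0.79 and -0.84 without those libraries. Rela (r = 0.13, permutation p = 0.712, adjusted p = 0.829; rho = -0.03, permutation p = 0.947) and Nfkbia (r = -0.06, permutation p = 0.879, adjusted p = 0.933; rho = -0.09, permutation p = 0.811) had the smallest r among the members, and r was -0.31 and 0.13 without those libraries. Without NLC-MI replicate 3, the library that stood apart for Rel, r was 0.64 for Relb and -0.46 for Rel. With the neutrophil marker level Rela had r = 0.80 (permutation p = 0.00676, adjusted p = 0.397; rho = 0.67, permutation p = 0.0392), and 0.33 without the 2 libraries farthest from its median. Neutrophil markers were scarce, and only 5 of the 8 genes in this level passed the filter on low counts. Their summed level was 10.1 to 26.9 CPM in NLC-MI and 14.8 to 35.0 CPM in TgGRK5-MI. The marker level also moved with the other measures of the libraries. Its r was 0.88 with the fibroblast marker level, -0.83 with the cardiomyocyte marker level and 0.50 with the log2 total count. With the log2 total count in its place, a measure chosen after seeing the data, 4 members had an adjusted p under 0.05, where 7.16% of all genes tested had a positive and 8.3% a negative relation. They were Relb (r = 0.88, permutation p = 0.00018, adjusted p = 0.0180; rho = 0.82, permutation p = 0.00637), Nfkb1 (r = 0.81, permutation p = 0.00255, adjusted p = 0.0302; rho = 0.76, permutation p = 0.0154), Nfkb2 (r = 0.81, permutation p = 0.00295, adjusted p = 0.0321; rho = 0.84, permutation p = 0.00392) and Nfkbib (r = -0.90, permutation p = 0.00335, adjusted p = 0.0338; rho = -0.83, permutation p = 0.00475). Without the 2 libraries farthest from the median total count, r was 0.70, 0.80, 0.80 and -0.94. For Nfkbie the relation with the log2 total count had r = 0.45 (permutation p = 0.196, adjusted p = 0.370) but rho = 0.79 (permutation p = 0.00886). Its r was 0.58 without the 2 libraries farthest from the median total count. With the fibroblast marker level Nfkb1 had r = 0.83 (permutation p = 0.0062, adjusted p = 0.0521), close to its r with the macrophage markers. Macrophage, fibroblast and depth measures therefore cannot be told apart for Nfkb1 or Nfkbie.

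**Figure D5:**
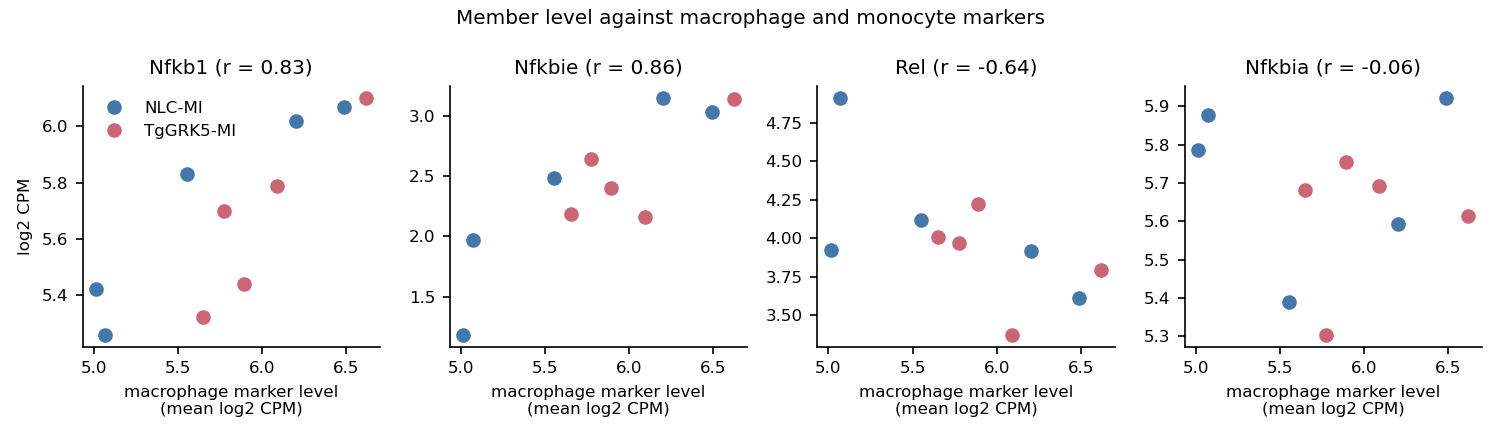
Log2 CPM of Nfkb1, Nfkbie, Rel and Nfkbia against the mean log2 CPM of 10 macrophage and monocyte markers, with 1 point per library. Nfkb1 (r = 0.83) and Nfkbie (r = 0.86) are high where the markers are high, Rel (r = -0.64) is low there, and Nfkbia (r = -0.06) shows no such slope. Without NLC-MI replicate 3, r for Rel is -0.46.

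Upstream of the members, the list of kinases and adaptors that carry the signal to the IκB kinase held 26 genes, all of them tested. At an unadjusted p under 0.05, 0 of them differed with edgeR, against 3.85% of all genes tested, and 0 had an adjusted p under 0.10. Their median log2 fold change was 0.00, between -0.39 and 0.21. The most abundant were Tab2, an adaptor of the kinase TAK1, at 105.4 ± 45.2 CPM in NLC-MI, against 106.3 ± 39.9 CPM in TgGRK5-MI, and Irak1, a kinase below interleukin-1 and Toll-like receptors, at 94.7 ± 14.9 and 90.7 ± 15.2 CPM (SD, n = 5 each). Map3k7, which encodes TAK1 itself, was at 69.0 ± 8.94 and 68.4 ± 6.32 CPM. The summed level of the 26 genes lay between 753.7 and 807.4 CPM in NLC-MI and between 741.4 and 807 CPM in TgGRK5-MI.

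The list of receptors that feed the pathway held 13 genes, of which 12 were tested. With edgeR 0 of these had an unadjusted p under 0.05, against 3.85% of all genes tested. Their log2 fold change was above 0 for 11 of the 12, with a median of 0.09, where it was above 0 for 7646 of all 15232 genes tested. The macrophage and monocyte markers lay the same way (9 of 10 above 0), and their part in this was not tested. Tnfrsf12a, the receptor for TWEAK, was at 151.0 ± 75.9 CPM in NLC-MI, against 151.9 ± 51.7 CPM in TgGRK5-MI, and Tnfrsf1a, the main TNF receptor of most tissues, was at 91.8 ± 17.4 and 94.8 ± 14.9 CPM (SD, n = 5 each). Ltbr, a receptor of the alternative pathway, was at 50.1 ± 7.16 and 47.2 ± 5.85 CPM. Tnfrsf13c, the receptor for BAFF on B cells, had at most 2 counts in any library and was not tested.

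Of 16 further negative regulators, all tested, 1 (Otulin) had an unadjusted p under 0.05 with edgeR, where 3.85% of all genes tested had. At an adjusted p under 0.10 the number was 0. Otulin encodes a deubiquitinase that cuts linear ubiquitin chains. It was at 38.3 ± 3.19 CPM in NLC-MI (33.7 to 41.5) and 48.2 ± 7.93 CPM in TgGRK5-MI (41.1 to 58.2, SD, n = 5 each). On the log2 scale this was a change of 0.33 (standard error 0.14), with an unadjusted p of 0.0358 and an adjusted p of 1 in edgeR, so the difference did not hold over all genes tested, and the groups overlapped (exact permutation test, p = 0.0159). The count of genes in this list under 0.05 was 0 in 10 of 22 alternatives, among them those without NLC-MI replicate 1, 3 or 5 or TgGRK5-MI replicate 4 or 5. Tax1bp1, an adaptor of A20, was the most abundant of the list, at 155.7 ± 24.0 and 164.7 ± 14.8 CPM. Rnf11, another partner of A20, was at 113.9 ± 14.5 and 114.4 ± 9.13 CPM, and Commd1 was at 51.3 ± 16.1 and 60.9 ± 13.0 CPM.

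Downstream, 28 of 31 textbook NF-κB target genes were tested. With edgeR, 0 of them had an unadjusted p under 0.05, against 3.85% of all genes tested. Their median log2 fold change was -0.07, above 0 for 10 genes and below 0 for 18 genes. In 8 of 22 alternatives 1 or 2 of them were under 0.05, where 2.99% to 9.89% of all genes tested were. Fits with a library left out were among these (NLC-MI replicate 1, 2 or 5, TgGRK5-MI replicate 3). Sod2, the mitochondrial superoxide dismutase, was at 486.8 ± 164.9 CPM in NLC-MI, against 475.3 ± 103.9 CPM in TgGRK5-MI, complement C3 at 176.8 ± 101.6 and 209.1 ± 121.0 CPM, and Ier3 at 93.8 ± 34.9 and 79.2 ± 13.2 CPM (SD, n = 5 each). The log2 fold changes of the 28 genes ran from -0.50 to 0.66. Ccl20, Csf2 and Csf3 had at most 4 counts in any library and were not tested.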

How the data were processed

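RNA-Seq counts of cardiomyocytes from 5 NLC-MI and 5 TgGRK5-MI libraries were used. The authors deposited whole-number counts per Ensembl gene, without normalization. The submitters' processing notes name Bowtie2, RSEM 1.2.31, DESeq2 and the build mm10, with no role. If RSEM made the table, its values are estimates rounded to whole numbers. The strand setting is not given in the sources used here, and the labels' TruSeq RNA kit does not mark strand, so overlapping genes on opposite strands are uncertain.

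Symbols, positions and exon lengths came from GENCODE M21 (GRCm38), which held 51596 of 51789 identifiers. A symbol with several identifiers was given the one with most counts. In R 4.3.3, edgeR 4.0.16 filtered genes with filterByExpr (15232 of 28506 with a total above 0), applied TMM and fitted the groups by quasi-likelihood (glmQLFit, legacy=FALSE; glmQLFTest), with Benjamini-Hochberg adjustment over all genes tested. Calls used an adjusted p under 0.10, beside an unadjusted p under 0.05. All CPM are TMM-scaled, and log2 CPM a prior count of 2. For single genes, mean log2 CPM was compared by an exact permutation test (two-sided, all 252 placements). Relations with marker levels used 100000 permutations, adjusted over all genes tested. The procedures were tested on simulated data. Alternatives used DESeq2 1.42.0 and limma 3.58.1 among others.

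The genes named are the 10 members, of each NF-κB list those with an unadjusted p under 0.05 and the 3 with the highest mean CPM, of the marker lists the 2 most abundant where described, Grk5, and the 5 genes most like Nfkbia and Nfkb2. Outside this rule, list genes that were not tested and genes that overlap a member were named after their values were seen. Members and lists were chosen with earlier results of these data known. Lists were written by hand. Libraries held 7968779 to 23381527 counts, and the intervals are for the log2 fold change, given the spread between libraries.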

Additional observations from a re-analysis of the deposited data

Results flagged for a closer look

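The CPM, shares and summed list levels were examined in 58 groups of 5 libraries for a value far from the others, a rule that chance meets in about 1 in 20 groups, and 1 value was found. Rel, the gene of c-Rel, was at 29.97 CPM in NLC-MI replicate 3, where the other 4 NLC-MI libraries lay between 12.11 and 17.27 CPM, so the gap made up 0.711 of the range against a critical value of 0.71. That library had the fewest counts of all 10, with 229 counts of Rel.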

How the results depend on the processing

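Under all 22 alternatives to the comparison of the groups, 0 members had an adjusted p under 0.10. The median log2 fold change of the members stayed below 0 when each library was left out, from -0.217 to -0.037. The number of members with an unadjusted p under 0.05 was 2 (Nfkb2 and Relb, against 9.89% of all genes tested) with the macrophage marker level as a covariate, 1 (Nfkb2, against 6.79%) with depth class as a term, and from 0 to 1 with a library left out, the 1 being Nfkb2 without NLC-MI replicate 3 (against 6.87%). These covariates and the alternatives by depth were chosen after seeing the data. The labels give replicate numbers without saying whether they pair the libraries. The deviations of same-numbered libraries correlated at 0.072, 0.662, 0.381, -0.341 and 0.085, and 1 of the 5 numbers matched its own best. This does not settle whether the numbers pair the libraries. With the number as a replicate block, edgeR gave 0 members at an unadjusted p under 0.05 (against 3.97%) and Nfkb2 a log2 fold change of -0.268. The sign of small log2 fold changes turned in places, none past a threshold. With library size alone Nfkbie was at -0.012, and with the macrophage covariate at -0.211. Without the 3 libraries with the fewest counts Rela was at -0.043, Nfkb1 at 0.011, Nfkbib at -0.06 and Tnfaip3 at 0.119. With each library left out, Rela ran from -0.027 to 0.108, Nfkb1 from -0.182 to 0.015, Nfkbib from -0.115 to 0.312 and Nfkbie from -0.196 to 0.229. In the difference of mean log2 CPM (exact test), the corresponding ranges were -0.026 to 0.107 for Rela, -0.165 to 0.037 for Nfkb1, -0.074 to 0.267 for Nfkbib, -0.153 to 0.337 for Nfkbie, -0.356 to 0.001 for Relb and -0.3 to 0.001 for Nfkbiz. Within the 6 libraries with the most counts this difference was -0.11 for Rela, -0.243 for Nfkbie and 0.009 for Tnfaip3, and within the other 4 it was 0.065 for Relb, 0.041 for Nfkb1 and 0.07 for Nfkbiz. The cause was not tested.

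At an adjusted p under 0.05, 2 members were related to macrophage markers and 0 to neutrophil markers, which were scarce. With neutrophil markers 0 of all genes tested were related. With fibroblast markers the number was 1 (Nfkbie), while Nfkb1 had an adjusted permutation p of 0.0521. With the log2 total count the number was 4. Of all genes tested, 5.74% were positive and 2.95% negative with macrophage markers, 8.62% and 2.92% with fibroblast markers, and 7.16% and 8.3% with the log2 total count. On the log2 total count r was -0.617 for Rela and -0.341 for Nfkbiz, and on neutrophil markers it was 0.80 for Rela, -0.215 for Relb, 0.206 for Rel, -0.009 for Nfkb2, 0.111 for Nfkbib and -0.003 for Tnfaip3. With each library left out, r on macrophage markers ran from -0.232 to 0.302 for Rela, from -0.317 to 0.17 for Nfkbia and from -0.069 to 0.771 for Nfkbiz. The lowest count of any member in a library was 29, for Nfkbie.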

Other observations

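The genes whose log2 CPM followed a member most closely over the 10 libraries were looked up for Nfkbia, the member with the highest level per kilobase, and for Nfkb2, the member with the smallest p. They were picked from 15232 genes for their likeness, so no test is given, and the libraries share their depth, which Nfkb2 followed. For Nfkb2 they were Osbpl5 (r = 0.99), Lmna (r = 0.97), Pnpla6 (r = 0.97), Pcnx3 (r = 0.97) and Nrf1 (r = 0.96). For Nfkbia they were Triqk (r = 0.90), Mnat1 (r = 0.89), Ripply3 (r = 0.88), Rsad2 (r = 0.87) and Olfr889 (r = 0.86).

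Rela and Nfkbia varied little among libraries of the same group, with a pooled SD of log2 CPM of 0.20 each. This was above 18.7% of 1205 genes and 20.1% of 1207 genes, respectively, with a mean level within 0.25 of theirs. Nfkbie, Nfkbib and Relb varied more (SD 0.64, 0.44 and 0.47), above 74.7%, 74.1% and 73.6% of the genes of their level.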
